A study of Mus musculus with 9 samples.

Results

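This account concerns the genes of hepatic iron handling and hepcidin control. The list held 10 genes, namely *Hamp*, *Hamp2*, *Hfe*, *Hfe2*, *Tfr2*, *Tfrc*, *Trf*, *Fth1*, *Ftl1* and *Slc40a1*. They were picked by name for their roles in iron transport, iron storage and the regulation of hepcidin. The deposited tables hold 19329 gene symbols, and 9 of the 10 listed genes were found there. All 9 were among the 12091 genes that passed the filter on low counts. *Hfe2*, which encodes the hepcidin co-receptor hemojuvelin, was not analysed here.

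The livers came from C57BL/6J mice, a widely used inbred strain, with no transgene or deletion named for either group. The HSD group was 4 mice given a high-sucrose diet for 3 weeks from 8 weeks of age, and the Chow group was 5 mice kept on standard chow. All livers were collected at 11 weeks of age, and each mouse gave its own library. The sex of the mice and the hour of collection are not given in the sources used here.

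Iron in the blood is carried by transferrin, the product of *Trf*, and is taken up through transferrin receptor 1, the product of *Tfrc*. Inside cells iron is stored in ferritin, a shell of heavy chains (*Fth1*) and light chains (*Ftl1*), and it leaves through ferroportin (*Slc40a1*). The liver sets iron release for the whole body by secreting hepcidin (*Hamp*), a small peptide that blocks ferroportin and leads to its degradation. Hepatocytes sense iron through transferrin receptor 2 (*Tfr2*), the HFE protein and hemojuvelin, which act with BMP receptors and SMAD proteins on the hepcidin gene, and inflammation acts on the same gene through IL-6 and STAT3. The mouse has a second hepcidin gene, *Hamp2*, whose peptide is not known to control iron as *Hamp* does in mice.

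Ferritin, ferroportin and transferrin receptor 1 are also controlled after transcription, by iron regulatory proteins that bind a short hairpin in the mRNA, the iron-responsive element. A hairpin in the 5′ UTR lets these proteins block translation, whereas hairpins in the 3′ UTR of *Tfrc* protect the mRNA from decay when iron is scarce. The elements are shown because they mark which of the genes carry this control. They were located by a pattern search (a C bulge, 5 paired bases, the loop CAGTGN without G at its last place, and 5 bases that pair back) in the GENCODE transcripts of GRCm38. Capitals mark the 6 bases of the loop.
*Fth1*, 5′ UTR, chr19:9982733-9982760, plus strand: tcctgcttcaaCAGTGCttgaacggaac
*Ftl1*, 5′ UTR, chr7:45459779-45459806, minus strand: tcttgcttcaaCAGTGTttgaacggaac
*Slc40a1*, 5′ UTR, chr1:45925465-45925492, minus strand: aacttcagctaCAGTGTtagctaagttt
*Tfrc*, 3′ UTR, chr16:32631220-32631247, plus strand: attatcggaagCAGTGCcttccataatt
*Tfrc*, 3′ UTR, chr16:32631599-32631626, plus strand: attatcgggagCAGTGTcttccataatg
*Tfrc*, 3′ UTR, chr16:32631664-32631691, plus strand: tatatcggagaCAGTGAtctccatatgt
*Tfrc*, 3′ UTR, chr16:32631711-32631738, plus strand: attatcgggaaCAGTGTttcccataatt
The search found 4 matches in *Tfrc*, 1 each in *Fth1*, *Ftl1* and *Slc40a1*, and 0 in *Hamp*, *Hamp2*, *Hfe*, *Hfe2*, *Tfr2* and *Trf*. The same pattern occurred in 222 of 21877 protein-coding genes (1.01%), so a match by itself is a description of letters.

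The hepcidin genes lie side by side on chromosome 7, both on the minus strand, with *Hamp* at chr7:30942368-30944032 and *Hamp2* at chr7:30922372-30924681, 17686 bases apart. Their longest coding transcripts were identical at 388 of 437 aligned columns (88.8%). The 250 bases before the RefSeq start of each gene (build GRCm38.p6) are shown because they hold the stretch where BMP and STAT3 signals are known to reach *Hamp*. Capitals mark GGCGCC, the core of the BMP-responsive element, and TTCNNNGAA, the motif of STAT factors, both searched on both strands.
*Hamp*, chr7:30944030-30944279, minus strand: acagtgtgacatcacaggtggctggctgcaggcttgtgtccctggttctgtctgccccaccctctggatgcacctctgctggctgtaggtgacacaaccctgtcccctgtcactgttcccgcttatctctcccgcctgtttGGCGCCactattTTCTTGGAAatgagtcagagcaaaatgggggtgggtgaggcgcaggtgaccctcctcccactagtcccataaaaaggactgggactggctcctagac
*Hamp2*, chr7:30924182-30924431, minus strand: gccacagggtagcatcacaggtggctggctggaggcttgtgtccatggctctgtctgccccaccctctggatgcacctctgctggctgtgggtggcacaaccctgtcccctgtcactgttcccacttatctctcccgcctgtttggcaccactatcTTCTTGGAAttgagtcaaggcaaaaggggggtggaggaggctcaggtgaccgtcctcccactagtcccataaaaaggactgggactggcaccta
These windows were identical at 227 of 253 aligned columns (89.7%). The *Hamp2* window lay wholly within the GENCODE span of *Hamp2* given above, so the 2 annotations place its start differently. Outside the hepcidin genes, a RefSeq window of *Tfrc* also held GGCGCC, from −89 to −84. *Hamp* held GGCGCC from −109 to −104 and TTCTTGGAA from −97 to −89, counted from the RefSeq start. *Hamp2* held TTCTTGGAA from −94 to −86 and no GGCGCC, since its matching stretch differed by G4A, counted from the 5′ end of the 6 bases. Of 32851 such windows of RefSeq genes, 9.59% held GGCGCC and 7.02% held TTCNNNGAA, and the clock motif CACGTG, in 6.02% of windows, was in neither hepcidin window.

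The libraries held 14040723 to 24825322 estimated counts on HSD and 12769668 to 25913869 on Chow. The liver labelled Chow 1 stood apart in acute phase genes, the secreted proteins of inflammation. Its 18 listed acute phase genes summed to 118683 TPM (a share of all transcripts in a library, corrected for transcript length), against 18384 to 20834 TPM on HSD and 16736 to 25165 TPM in the other Chow livers. *Arntl*, a clock gene that cycles over the day, was at 4.203 to 9.15 CPM on HSD and 1.35 to 9.24 CPM on Chow, with Chow 1 (4.40) and Chow 3 (9.24) above the other Chow livers (1.35 to 1.63). CPM is a share of all counts after TMM normalization and is used here to compare diets for a gene. The sum of 6 hepatocyte marker genes, *Alb* among them, was 82433 to 105493 TPM on HSD and 48950.4 to 99305 TPM on Chow, so the tissue label fitted its markers. In whole tissue, fewer cells of a type and less RNA per cell cannot be told apart.

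The iron genes covered a wide range of levels. By median TPM over the 9 livers the order was *Trf* (13552), *Ftl1* (4468), *Hamp* (2757), *Fth1* (2104), *Hamp2* (386), *Tfr2* (175), *Slc40a1* (37.8), *Hfe* (21.8) and *Tfrc* (4.00). *Hamp* and *Fth1* overlapped over the livers, with *Hamp* the higher in 6 of 9, and so did *Hamp2* and *Tfr2*, with *Hamp2* the higher in 6 of 9. Every other neighbour in this order was apart in 9 of 9 livers. *Trf* ranked 8th by mean TPM among all genes in the tables, and *Tfrc* ranked 7633rd.

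**Figure D1:**
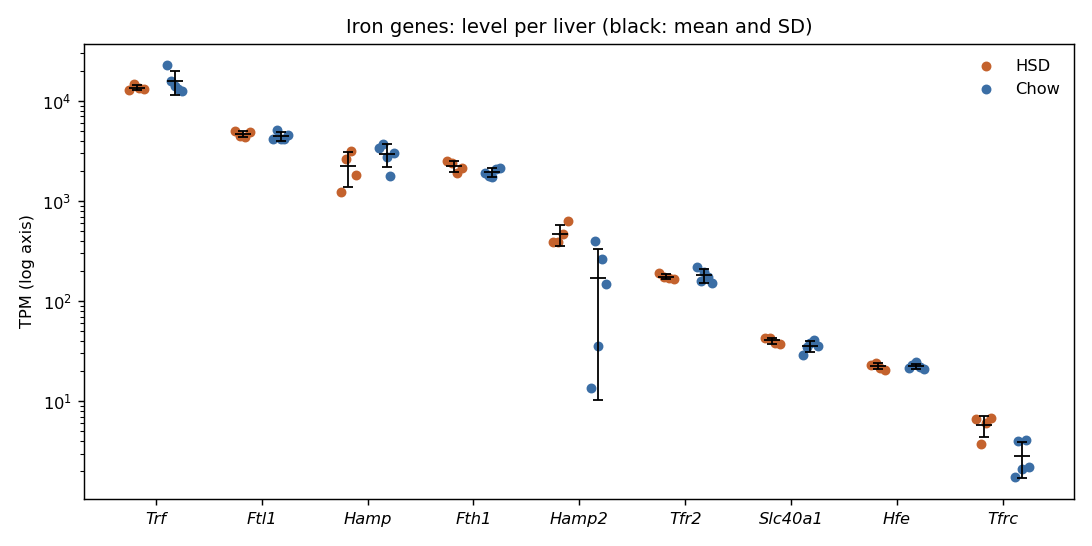
Level of each iron gene in each liver in TPM on a log axis, with HSD livers in orange and Chow livers in blue, and the mean and SD in black. The *Hamp2* points reach down to 13.4 TPM in Chow 1, while *Tfrc* is the lowest gene in every liver.

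*Tfrc* was the single iron gene that passed the test between diets. It was about 2 times as abundant on HSD, and the other 8 genes did not pass. Across all 12091 genes, 3.44% were called higher and 3.23% lower (edgeR quasi-likelihood test, Benjamini-Hochberg adjusted p under 0.05), or 6.67% in either direction, so 1 gene higher and 0 lower among 9 is a count of the size the background gives. At an unadjusted p under 0.05 the count among the 9 was again 1, against 23.7% of all genes. The median log2 fold change of the 9 genes was −0.10, beside −0.00 over all genes tested. Of the 9, 3 were positive, as were 5994 of all 12091 genes. In 0 of the 9 did the diets fail to overlap, where HSD lay wholly above Chow in 5.84% of all genes and wholly below in 5.51%, or 11.3% together.

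**Figure D2:**
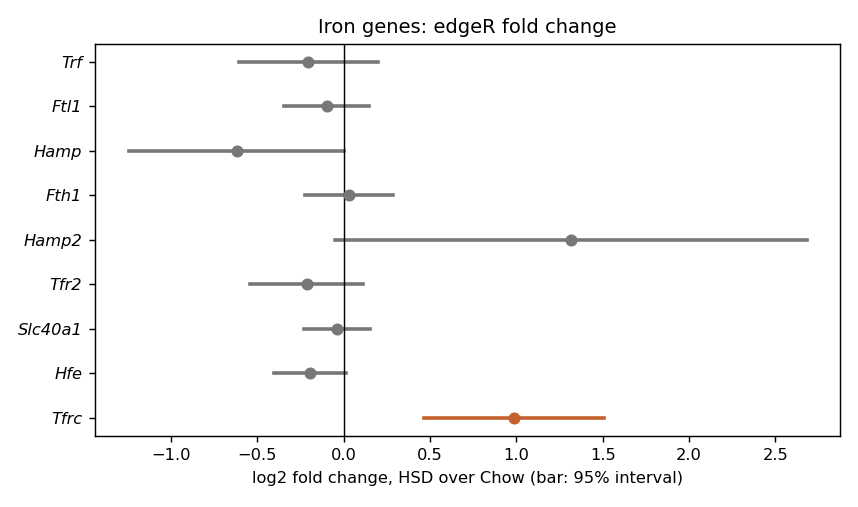
Log2 fold change of each iron gene, HSD over Chow, from edgeR, with bars for the 95% interval. The interval of *Tfrc* (orange) runs from 0.46 to 1.51, and the other 8 intervals include 0.

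*Tfrc*, the receptor for iron-loaded transferrin, was at 23.6, 11.6, 20.2 and 24.7 CPM in the HSD livers 1 to 4, against 7.76, 12.1, 7.41, 14.2 and 8.73 CPM in the Chow livers 1 to 5. The HSD livers 1, 3 and 4 were above every Chow liver, and HSD 2 lay below Chow 2 and Chow 4, so the groups overlapped. The mean was 20.03 ± 5.95 CPM on HSD and 10.1 ± 3.00 CPM on Chow (SD, n = 4 and 5). On the log2 scale the fold change was 0.99 with an SE of 0.24, a fold of 1.98 with a 95% interval of 1.38 to 2.84, and the edgeR adjusted p was 0.0320. These values rest on 236 to 624 estimated counts per HSD liver and 112 to 380 per Chow liver, and no 31-base stretch of *Tfrc* transcripts (0 of 6180) was found in another gene.

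The call for *Tfrc* held in 11 of 24 other settings. It was lost without HSD 1 (adjusted p 0.101), HSD 3 (0.0712), HSD 4 (0.101), Chow 3 (0.0641) or Chow 5 (0.0650), with fold changes of 0.87 to 1.18 on the log2 scale over all 9 such fits. The library labels fall into 2 number series, and what set them apart is not stated. Within the first series of library labels, which holds 2 HSD and 4 Chow livers, the log2 fold change was 0.75 (adjusted p 0.357), and the second series holds only 2 HSD livers and 1 Chow liver. The sign was positive in every one of the settings run.

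Next to the receptor, its ligand showed no such difference. *Trf* was at 17890.3, 18689, 17072 and 18418 CPM in the HSD livers, against 31423, 20302, 18791, 16779 and 16559 CPM in the Chow livers. Chow 1 stood alone at the top, and the other Chow livers spread around the HSD livers. Its log2 fold change was −0.21 (SE 0.18, adjusted p 0.546), and without Chow 1 it was −0.01 (adjusted p 0.964). The transcript took 1.78% to 1.88% of all counts on HSD and 1.66% to 2.88% on Chow. Of its 31-base stretches, 63.9% also occur in other genes, chiefly the overlapping *Gm20425*.

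*Tfr2*, the iron-sensing receptor of hepatocytes, was at 387, 368, 343 and 337 CPM in the HSD livers, against 572, 364, 449, 359 and 339 CPM in the Chow livers. Chow 1 and Chow 3 were the highest, and the rest of the livers of both diets lay close together. Its log2 fold change was −0.22 (SE 0.15, adjusted p 0.423), and it was −0.08 (adjusted p 0.692) without Chow 1. *Hfe*, the partner of the transferrin receptors that is mutated in human hemochromatosis, was at 34.6, 39.0, 35.6 and 33.0 CPM in the HSD livers, against 47.5, 38.7, 42.7, 39.2 and 35.4 CPM in the Chow livers. The groups overlapped, again with Chow 1 and Chow 3 on top. The log2 fold change of *Hfe* was −0.20 (SE 0.10, 95% interval −0.41 to 0.01, adjusted p 0.239).

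Both transferrin receptors bind transferrin, so their proportion was compared per liver. *Tfr2* was in excess in every liver, by 28.9, 47.0, 28.1 and 24.6 times the TPM of *Tfrc* in the HSD livers and by 126.9, 39.8, 92.8, 43.2 and 69.4 times in the Chow livers. The excess was smaller in 3 HSD livers than in any Chow liver, while HSD 2 fell among the Chow livers. The log2 ratio of *Tfrc* to *Tfr2* was −4.96 ± 0.41 on HSD and −6.08 ± 0.71 on Chow (SD), a difference of 1.12 (two-sided exact permutation test, p = 0.0476). Adjusted over the 3 ratios tested the exact p was 0.0714, and in the first series of library labels the difference was 0.86 (exact p = 0.267).

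Hepcidin itself was lower on average but did not pass. *Hamp* was at 162, 362, 429.7 and 248 CPM in the HSD livers, against 604, 564, 439.8, 251 and 449 CPM in the Chow livers. HSD 1 was the lowest of all and Chow 1 the highest, and Chow 4 lay near HSD 4, so the groups overlapped. The mean was 300.3 ± 118.97 CPM on HSD and 461.5 ± 137 CPM on Chow (SD, n = 4 and 5). The log2 fold change was −0.62 (SE 0.29), a fold of 0.651 with a 95% interval of 0.422 to 1.003, with an edgeR p of 0.0512 and an adjusted p of 0.214. The sign was negative in every one of 24 other settings, with adjusted p from 0.104 to 0.461.

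*Hamp2* varied more than any other of the 9 genes, with a 35.3-fold range of CPM over the livers. It was at 53.8, 56.1, 66.8 and 89.0 CPM in the HSD livers, against 2.52, 63.2, 5.92, 38.4 and 23.0 CPM in the Chow livers. The HSD livers lay within a narrow band. The Chow livers ran from low values in Chow 1 and Chow 3 (13.4 and 35.4 TPM) to the HSD level in Chow 2. The mean was 66.4 ± 16.1 CPM on HSD and 26.6 ± 25.0 CPM on Chow (SD). The log2 fold change was 1.32 (SE 0.63, 95% interval −0.05 to 2.68), with an edgeR p of 0.0575 and an adjusted p of 0.228. It was 2.03 with limma voom (adjusted p 0.0892), 2.05 with the replicate block (adjusted p 0.123) and 2.26 to 2.28 on the 3 TPM scales (adjusted p 0.114 to 0.208), and it passed in none of these fits.

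The Chow livers with the least *Hamp2*, Chow 1 and Chow 3, were also those with the most *Arntl*. HSD 1, with *Arntl* at 9.15 CPM, had *Hamp2* just below the other HSD livers. HSD 2, HSD 3 and HSD 4 had *Arntl* at 4.22, 4.23 and 4.203 CPM, near the 4.40 CPM of Chow 1, with more *Hamp2*. Chow 1 and Chow 3 also had the highest Chow sums of acute phase genes (118683 and 25165 TPM). The same held for markers of Kupffer cells, the liver macrophages (388 and 309 TPM). Chow 5, the next lowest Chow liver in *Hamp2*, had the lowest Chow value of both sums (16736 and 212 TPM). In a fit with the log2 difference of *Arntl* and *Dbp* as a covariate, chosen after seeing the data, the log2 fold change of *Hamp2* was 2.57 (adjusted p 0.0139) and that of *Tfrc* was 1.13 (adjusted p 0.0262). With Chow 1 and Chow 3 both left out, *Hamp2* was at 0.66 (adjusted p 0.164) and *Tfrc* at 0.75 (adjusted p 0.0754). The separate part of clock, acute phase and Kupffer cell levels in the low *Hamp2* of these livers was not tested.

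**Figure D3:**
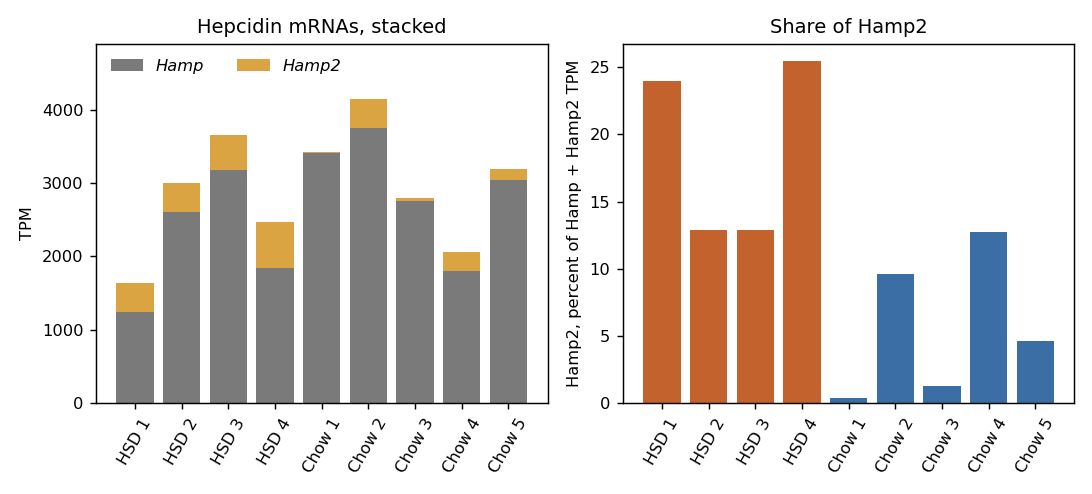
Left, *Hamp* (grey) and *Hamp2* (gold) stacked per liver in TPM; right, the percent of their sum that was *Hamp2*, with HSD livers in orange and Chow livers in blue. The share is 12.9% or more in the HSD livers and 12.7% or less in the Chow livers.

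The share of *Hamp2* in the hepcidin mRNAs was 23.96%, 12.9%, 12.9% and 25.5% in the HSD livers, against 0.393%, 9.63%, 1.27%, 12.7% and 4.64% in the Chow livers. Every HSD liver was above every Chow liver, although HSD 2 and HSD 3 were only just above Chow 4. The mean share was 18.8 ± 6.86% on HSD and 5.73 ± 5.32% on Chow (SD), a difference of 13.1 percentage points (two-sided exact permutation test, p = 0.0159, where the smallest p is 0.00794). Adjusted over the 3 ratios the exact p was 0.0477. In the first series of library labels the difference was 12.4 points (exact p = 0.133, where 15 assignments allow no p below 0.0667). The summed TPM of the pair was 1632, 2999, 3655 and 2465 in the HSD livers, against 3420.2, 4154, 2793, 2059 and 3195 in the Chow livers, and the groups overlapped.

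The split between these neighbours depends on how reads were shared out. Of the 31-base stretches, 33.7% of the 380 in *Hamp* and 23.1% of the 553 in *Hamp2* occur in both genes, and kallisto divides a read that fits both. Both genes also overlap the annotated *Gm44662*. The part of this in the differing shares was not tested.

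The ferritin chains did not differ detectably. *Fth1*, the heavy chain that oxidises iron for storage, was at 1192, 1197, 914 and 1035 CPM in the HSD livers, against 1182, 967, 963, 1044 and 1146 CPM in the Chow livers. The lowest and the highest of the 9 livers were both on HSD. Its log2 fold change was 0.03 with a 95% interval of −0.22 to 0.29 (adjusted p 0.898), and its sign was negative (−0.02) without HSD 1 or without HSD 2.

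*Ftl1*, the light chain, was at 2771, 2584, 2455 and 2780.2 CPM in the HSD livers, against 3012, 3229, 2700.2, 2418 and 2819.8 CPM in the Chow livers. The groups overlapped, with Chow 1 and Chow 2 on top. Its log2 fold change was −0.10 with a 95% interval of −0.34 to 0.15 (adjusted p 0.643). On the 3 TPM fits it was 0.08, where the median over all genes was 0.0632 to 0.155. The sequence is shared widely, since 64.2% of its 31-base stretches occur in other genes, most of them in the pseudogene *Ftl1-ps1*, and *Gm10252* overlaps it.

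Light chain exceeded heavy chain in every liver, by 1.86 to 2.31 times in TPM on HSD and 1.995 to 2.87 times on Chow. The log2 ratio of *Fth1* to *Ftl1* was −1.08 ± 0.16 on HSD and −1.20 ± 0.21 on Chow (SD), a difference of 0.13 (two-sided exact permutation p = 0.381). *Slc40a1*, the iron exporter, was at 94.4, 102.6, 92.7 and 79.7 CPM in the HSD livers, against 90.4, 93.3, 99.2, 99.0 and 92.2 CPM in the Chow livers. The highest and the lowest liver were both on HSD. The log2 fold change of *Slc40a1* was −0.04 with a 95% interval of −0.23 to 0.15 (adjusted p 0.838). On the 3 TPM fits it was 0.18 to 0.19, where the median over all genes was 0.0632 to 0.155.

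Ferroportin is abundant in Kupffer cells, the macrophages of the liver, so their markers stand beside it. The 10 Kupffer cell markers summed to 135 to 279 TPM on HSD and 212 to 388 TPM on Chow, and none of them was at 0 in any liver. HSD 4 had the lowest sum and the least *Slc40a1* in CPM, whereas Chow 1 had the highest sum and the next lowest *Slc40a1* (90.4 CPM). In TPM, the unit of the sums, Chow 1 had the least *Slc40a1* (29.0). HSD 4 (37.7 TPM) was then also above Chow 2 (34.5 TPM) and Chow 5 (35.9 TPM). All 10 Kupffer cell markers had a negative fold change, with a median of −0.54 on the log2 scale. Of the 10, 0 passed (5 at an unadjusted p under 0.05). Of all 12091 genes, 6097 had a negative fold change and 23.7% were at an unadjusted p under 0.05 (edgeR). The part of the Kupffer cell markers in the values of *Slc40a1* was not tested.

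Of the genes with a matched iron-responsive element, *Tfrc*, with 4 matches at the 3′ end, passed. *Fth1*, *Ftl1* and *Slc40a1*, each with 1 match at the 5′ end, had log2 fold changes between −0.10 and 0.03. The difference between their fold changes and that of *Tfrc* was not tested. The other mRNAs known to carry such an element gave 1 higher and 1 lower of 4, beside 3.44% and 3.23% of all genes. *Alas2*, the enzyme that starts heme synthesis in red cell precursors, was at 70.9, 58.2, 67.6 and 77.4 CPM in the HSD livers, against 152.0, 171, 142, 154 and 137 CPM in the Chow livers. The groups were far apart, with a log2 fold change of −1.14 (SE 0.10, adjusted p 0.00016), and the call held in 24 of 24 other settings.

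*Alas2* was counted among the 6 red cell markers, whose summed TPM was 217 to 384 on HSD and 231 to 1040 on Chow. The highest sum was in Chow 2, and the other Chow livers were at 231 to 253, within the HSD range. The sum includes *Alas2* itself, at 41.0 to 56.1 TPM on HSD and 87.4 to 113 TPM on Chow. The part of red cell content in the values of *Alas2* was not tested. Of the 5 red cell markers tested, 0 were higher and 1 was lower, namely *Alas2*, beside 3.44% and 3.23% of all genes. All 5 fold changes were negative, as were 6097 of all 12091 genes. *Alas2* overlaps *Apex2*, with which it shares 11.8% of its 31-base stretches. *Epas1*, an oxygen-sensing transcription factor (HIF-2α) that drives iron genes, was at 246, 263, 251 and 251 CPM in the HSD livers, against 205, 201, 184, 214 and 219 CPM in the Chow livers. The groups were apart and the log2 fold change was 0.31 (SE 0.08, adjusted p 0.0469), a call that held in 1 of 9 fits with a liver left out.

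In all, 68 other genes of the hepcidin and iron pathways were tested in 8 lists, *Alas2* and *Epas1* among them. Of these 6 (8.82%) were higher and 3 (4.41%) lower on HSD, beside 3.44% and 3.23% of all genes. The lists were chosen with earlier results of these data known and were read by counts and medians, with no test of a list.

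**Figure D4:**
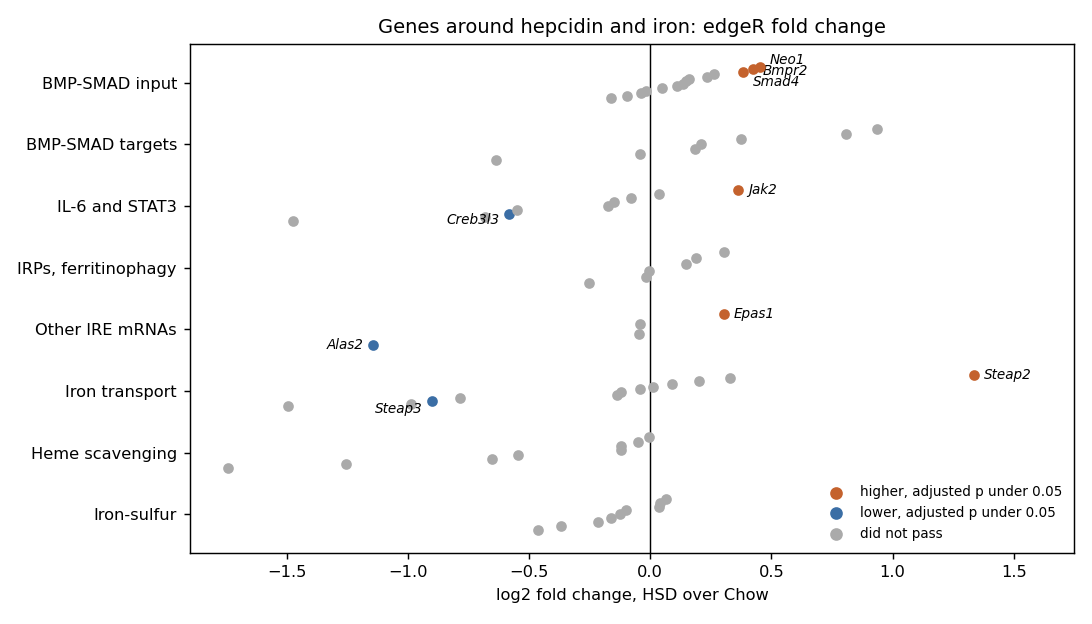
Log2 fold change, HSD over Chow, of every tested gene in the 8 pathway lists, with genes past the test in orange (higher) or blue (lower) and named, and the others in grey. *Steap2* lies farthest to the right at 1.34 among the named genes and *Alas2* farthest to the left at −1.14.

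The BMP-SMAD route, the main iron signal to hepcidin, had 3 genes higher and 0 lower of 14 tested. Across all genes 3.44% were higher and 3.23% lower. The median log2 fold change of the 14 was 0.14. Of 7 markers of stellate cells, the vitamin A storing cells of the liver, 6 had a positive fold change (median 0.28) and 0 passed (3 at an unadjusted p under 0.05), and they summed to 256 to 332 TPM on HSD and 171 to 259 TPM on Chow. All 5 bile duct cell markers had a positive fold change (median 0.37) and 0 passed (2 at an unadjusted p under 0.05), with sums of 46.2 to 69.6 TPM on HSD and 24.7 to 58.2 TPM on Chow. Of 8 markers of sinusoidal endothelial cells, 3 had a positive fold change (median −0.03) and 0 passed (1 at an unadjusted p under 0.05). They summed to 125 to 143 TPM on HSD and 98.3 to 150 TPM on Chow. Of all 12091 genes, 5994 had a positive fold change and 23.7% were at an unadjusted p under 0.05 (edgeR). No marker of these kinds was at 0 in any liver, and their part in the values of this route was not tested.

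*Smad4*, the shared partner of the signalling SMADs, was at 37.1, 31.3, 32.1 and 34.2 CPM in the HSD livers, against 25.0, 27.2, 25.0, 25.3 and 26.8 CPM in the Chow livers. All HSD livers were above all Chow livers, as in 5.84% of all genes, with a log2 fold change of 0.38 (SE 0.08, adjusted p 0.0158). The call was kept in 7 of 9 fits with a liver left out.

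*Neo1* encodes neogenin, which binds hemojuvelin, and was at 24.5, 19.5, 20.7 and 22.6 CPM in the HSD livers, against 16.7, 12.8, 17.2, 15.97 and 17.2 CPM in the Chow livers. Its log2 fold change was 0.45 (SE 0.11, adjusted p 0.0304), kept in 5 of 9 fits with a liver left out. *Bmpr2*, a type II BMP receptor, was at 36.2, 31.4, 34.3 and 39.6 CPM on HSD, against 21.5, 26.6, 27.0, 31.3 and 25.1 CPM on Chow. Both genes were apart between diets, *Bmpr2* only just, where 11.3% of all genes were apart in either direction. The log2 fold change of *Bmpr2* was 0.43 (SE 0.11, adjusted p 0.0389), a call kept in 3 of 9 such fits.

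The gene with the largest change in this list that did not pass was *Bmpr1a*, a type I BMP receptor, at 0.26 (adjusted p 0.103). *Bmp6* and *Bmp2*, the ligands that reach hepatocytes from endothelial cells, had log2 fold changes of −0.10 (adjusted p 0.801) and 0.23 (adjusted p 0.402). *Tmprss6*, the protease that cuts hemojuvelin and holds hepcidin down, was at −0.04 (SE 0.09, adjusted p 0.832). *Erfe*, the erythroid hormone that lowers hepcidin, had 0 counts in every HSD liver and at most 4 in a Chow liver and was not tested.

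Response genes of the same route other than hepcidin gave 0 higher and 0 lower of 7, with a median of 0.21. Of the 7, 3 were at an unadjusted p under 0.05, against 23.7% of all genes (edgeR). The 3 were of both signs, with *Id1* positive and *Smad6* negative. *Id1*, a classical BMP target, was at 4.24, 7.66, 5.05 and 3.73 CPM in the HSD livers, against 1.42, 6.54, 2.02, 2.17 and 1.25 CPM in the Chow livers. The groups overlapped through Chow 2 alone, and the log2 fold change was 0.94 (SE 0.43, adjusted p 0.207). *Smad6* and *Smad7*, inhibitors induced by the route, were at −0.64 (adjusted p 0.110) and −0.04 (adjusted p 0.907).

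The IL-6 and STAT3 route gave 1 higher and 1 lower of 9 tested, beside 3.44% and 3.23% of all genes. The median log2 fold change of the 9 was −0.17. *Creb3l3*, a liver transcription factor of the endoplasmic reticulum that can induce hepcidin, was at 227, 253, 155 and 206.6 CPM in the HSD livers, against 315, 269, 371, 304 and 315 CPM in the Chow livers. All HSD livers were below all Chow livers, with a log2 fold change of −0.58 (SE 0.14, adjusted p 0.0314) that kept its call in 4 of 9 fits with a liver left out. *Jak2*, a kinase of cytokine receptors, was at 18.1, 18.5, 16.5 and 16.02 CPM on HSD, against 12.5, 12.6, 14.5, 13.4 and 14.0 CPM on Chow. It was apart in the other direction, with a log2 fold change of 0.36 (SE 0.09, adjusted p 0.0365), kept in 1 of 9 such fits. The largest change that did not pass was that of *Il1b*, an inflammatory cytokine, at −1.47 (adjusted p 0.121).

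Acute phase genes, which respond to the same cytokine route, gave 0 higher and 2 lower of 18, beside 3.44% and 3.23% of all genes. All 18 fold changes were negative with a median of −1.16, where 6097 of all 12091 genes were negative. These fold changes include Chow 1 with its sum of 118683 TPM. Chow 2 (20859 TPM) and Chow 3 (25165 TPM) were above the HSD range of 18384 to 20834 TPM. Chow 4 (18497 TPM) lay within it and Chow 5 (16736 TPM) below it. The median without Chow 1 was not computed. *Saa4*, a serum amyloid, was at −1.88 (adjusted p 0.0434) and *Itih3*, a plasma protease inhibitor, at −1.06 (adjusted p 0.0441), each kept in 4 of 9 fits with a liver left out. Without Chow 1 the log2 fold change of *Saa4* was −1.09 (adjusted p 0.00636) and that of *Itih3* −0.68 (adjusted p 0.00397). *Lcn2*, which binds iron-carrying bacterial siderophores, had a median of 2.07 CPM on HSD and 2.34 CPM on Chow, with 1081 CPM in Chow 1 alone, and did not pass (adjusted p 0.0826). Chow 1 was also the liver with the highest CPM of *Hamp*, *Trf*, *Tfr2* and *Hfe*. The part of its inflammation genes in these values was not tested. Without it the log2 fold change of *Hamp* was −0.51 (adjusted p 0.304) and that of *Hfe* −0.14 (adjusted p 0.360).

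Iron transport genes beyond the listed ones gave 1 higher and 1 lower of 12 tested, beside 3.44% and 3.23% of all genes. Both were ferrireductases of the STEAP family, which reduce iron for its passage through membranes. *Steap2* was at 19.99, 12.5, 15.8 and 13.5 CPM in the HSD livers, against 7.502, 4.44, 5.44, 7.16 and 5.93 CPM in the Chow livers. Each HSD liver was above each Chow liver, with a log2 fold change of 1.34 (SE 0.18, adjusted p 0.00199). *Steap3*, the reductase of the transferrin cycle, was at 12.7, 13.8, 12.1 and 12.1 CPM in the HSD livers, against 27.9, 22.5, 26.6, 21.9 and 19.2 CPM in the Chow livers.

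Each HSD liver was below each Chow liver for *Steap3*, and the log2 fold change was −0.90 (SE 0.12, adjusted p 0.00192). *Steap2* and *Steap3* kept their calls in 9 of 9 fits with a liver left out. In the first series of library labels their log2 fold changes were 1.40 (adjusted p 0.0670) and −0.90 (adjusted p 0.0594). The largest change that did not pass was *Scara5*, a ferritin receptor, at −1.49 (SE 0.67, adjusted p 0.203), with 74.0 CPM in Chow 1.

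**Figure D5:**
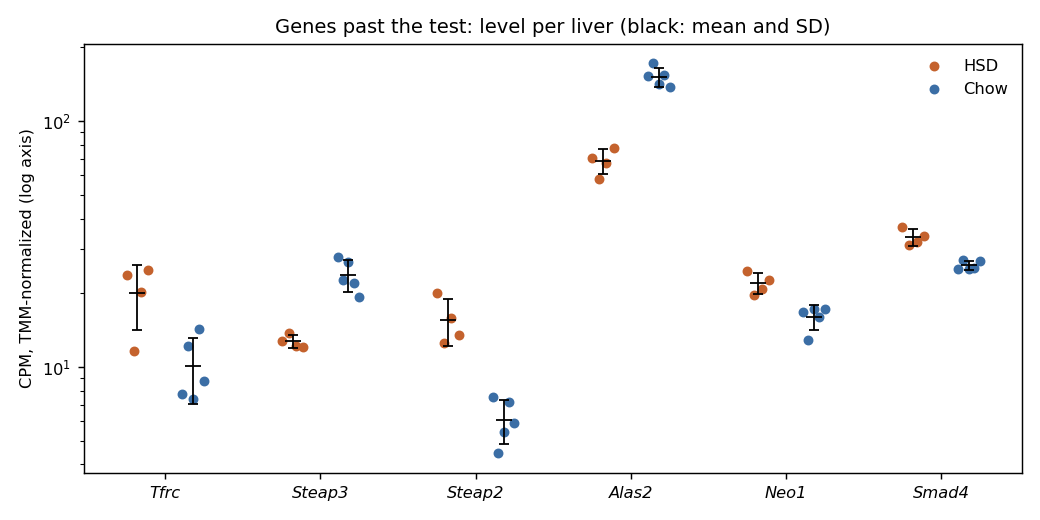
*Tfrc* and some of the pathway genes past the test, in CPM per liver on a log axis. HSD livers are in orange and Chow livers in blue, with the mean and SD in black. *Bmpr2*, *Epas1*, *Creb3l3* and *Jak2*, which also passed, are not drawn. HSD points lie wholly below the Chow points for *Steap3* and *Alas2*, wholly above them for *Steap2*, *Neo1* and *Smad4*, and overlap them for *Tfrc*.

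The remaining lists held no gene past the test. Iron regulatory proteins, iron chaperones and ferritinophagy genes gave 0 of 6 (2 at an unadjusted p under 0.05, against 23.7% of all genes). Among them were *Fbxl5*, which marks iron regulatory protein 2 for decay when iron is plentiful, at 0.30 (adjusted p 0.205), and *Aco1*, which is iron regulatory protein 1, at −0.25 (adjusted p 0.128). Iron-sulfur cluster genes gave 0 of 9 (1 at an unadjusted p under 0.05), with *Fdx1*, an electron donor to the assembly, the largest at −0.46 (adjusted p 0.238).

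Heme and haemoglobin scavenging genes gave 0 of 8, with 3 at an unadjusted p under 0.05, against 23.7% of all genes (edgeR). All 8 fold changes were negative with a median of −0.33, where 6097 of all 12091 genes were negative. The list includes *Cd163*, a macrophage receptor for haemoglobin, at −0.55 (adjusted p 0.271), and the Kupffer cell markers given above were negative in 10 of 10, with a median of −0.54 and 0 past the test. Their part in the values of this list was not tested. *Hp*, the haemoglobin carrier haptoglobin and itself an acute phase protein, was the largest at −1.74 (adjusted p 0.136), with a median of 1763 CPM on HSD and 2292 CPM on Chow and a highest Chow liver of 19791 CPM. *Hmox1*, which opens the heme ring and frees its iron, was at 9.24, 12.0, 10.2 and 7.14 CPM in the HSD livers, against 22.2, 14.9, 16.5, 11.8 and 10.1 CPM in the Chow livers. The groups overlapped, and its log2 fold change was −0.65 (SE 0.22, adjusted p 0.0957).

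The genes whose levels most resembled those of the iron genes over the 9 livers, all sharing the same libraries, are given as a description from 10367 genes compared. *Tfrc* was most like *Sptbn1* (Pearson r 0.986), *Xpo7* (0.968) and *Pcnp* (0.961), with 0.99, 0.979 and 0.968 without HSD 2. *Hamp* was most like *Rpl38* (0.966), *Serpinh1* (0.959) and *Mrpl30* (0.953), with 0.971, 0.958 and 0.953 without Chow 4. *Hamp2* was most like *Fam171a1* (0.982), *Gstm1* (0.978) and *G3bp1* (0.977), with 0.959, 0.95 and 0.949 without Chow 1. *Trf* was most like the acute phase gene *Apcs* (0.979) and the fibrinogen genes *Fgg* (0.971) and *Fgb* (0.969), and without Chow 1 these were 0.789, 0.769 and 0.762. *Tfr2* was most like *Fgl1* (0.988), *C4b* (0.978) and *Serping1* (0.977), with 0.955, 0.911 and 0.911 without Chow 1.

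*Hfe* was most like *Pcgf1* (0.978), *Hmox1* (0.967) and *Mustn1* (0.956), with 0.955, 0.938 and 0.907 without Chow 1. *Fth1* was most like *Zfp444* (0.936), *Nr2f6* (0.913) and *Hnrnpa0* (0.906), with 0.917, 0.894 and 0.903 without HSD 3. *Ftl1* was most like *Grk6* (0.958), *Lonp1* (0.928) and *Prkag1* (0.907), with 0.947, 0.935 and 0.912 without Chow 4. No gene followed either ferritin chain as closely as *Sptbn1* followed *Tfrc*. For *Slc40a1* the genes were *Casp2* (0.937), *Smap2* (0.86) and *Casp8* (0.86), with 0.825, 0.529 and 0.756 without HSD 4, the liver farthest from its group.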

How the data were processed

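The authors prepared poly-A libraries, sequenced read pairs and quantified them with kallisto on GRCm38, as the study's methods and the submitters' processing notes state. Neither the version of kallisto nor the annotation release is given in the sources at hand. The authors deposited unscaled estimated counts by gene symbol and TPM values, scaled by library, whose columns sum to 923061 to 945110. Of the count values above 0, 34.1% were whole within 1e-06 and 99.1% of those were even, so fits were repeated with counts halved. No column belonged to another sample (0).

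Counts were rounded, filtered with filterByExpr (at least 10 counts in enough livers and 15 in all) and normalized by TMM, and the test was that of edgeR 4.0.16 under R 4.3.3 (quasi-likelihood, diet as the single factor, 7 residual degrees of freedom, biological coefficient of variation 0.187). Benjamini-Hochberg adjustment ran over all 12091 genes, with a threshold of 0.05. The log2 CPM used a prior count of 2. The script was tested on simulated data. Counts of same-diet livers (16 pairs) gave chi-square values between 15.2 and 262 per degree of freedom, so no library was a repeat. The 3 ratios of TPM were compared by exact permutation. Alternatives used DESeq2 1.42.0, limma 3.58.1 with voom and on log2(TPM + 1) or log2(TPM + 0.1), other scalings and filters, a replicate block, the library label series, and each liver left out.

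The members and lists were chosen with earlier results of these data known. Named genes were all members, every list gene past the test (at most 4 a list, by size), the largest change that did not pass in each list and the 3 genes most like each member (among those averaging 1 or more in log2 CPM); *Lcn2*, *Arntl*, *Dbp*, *Hmox1*, *Cd163*, *Aco1*, *Smad6*, *Smad7*, *Tmprss6*, *Bmp2*, *Bmp6* and *Erfe* were added after their values were seen. Gene positions and 31-base stretches came from GENCODE vM21 and upstream windows from RefSeq, read with Python 3.11.15 and Biopython 1.88.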

Additional observations from a re-analysis of the deposited data

Results flagged for a closer look

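The log2 CPM of the 9 iron genes and of 29 pathway and clock genes named above, and the 3 ratios of TPM, gave 82 sets of livers of one diet, and 5 of these held a liver separated from the others by a gap past the 95% limit of Dixon's test, a limit that chance passes in about 1 set in 20. None of the 5 was an iron gene or a ratio. Of the 5, *Lcn2*, *Arntl*, *Bmp6* and *Cd163* were named only after their values were seen. The count of 5 therefore cannot be read against that rate.

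*Lcn2*, the siderophore-binding acute phase gene, was higher in Chow 1, where its log2 CPM was 10.08 against 0.8631 to 2.482 in the other Chow livers, a difference of 8.61 from their mean. *Arntl*, the clock gene, was higher in HSD 1, with a log2 CPM of 3.21 against 2.107 to 2.116 in the other HSD livers, a difference of 1.1 from their mean. *Bmp6*, the BMP ligand, was higher in Chow 5, with a log2 CPM of 2.734 against 1.983 to 2.154 in the other Chow livers, a difference of 0.675. *Neo1*, the neogenin gene, was lower in Chow 2, with a log2 CPM of 3.695 against 4.006 to 4.115 in the other Chow livers, a difference of −0.38. *Cd163*, the macrophage haemoglobin receptor, was lower in HSD 4, with a log2 CPM of 2.258 against 3.292 to 3.44 in the other HSD livers, a difference of −1.09, and HSD 4 also had the lowest sum of Kupffer cell markers.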

How the results depend on the processing

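Genes higher on HSD numbered 416 and genes lower 391. They numbered 647 and 690 with DESeq2, 220 and 205 with the replicate block, 15 and 19 in the first series of library labels, 97 and 112 at an adjusted p under 0.01, 243 and 51 on log2(TPM + 1) over all genes, and 153 to 475 and 149 to 493 with a liver left out. Genes lower were 254 with library totals and 101 on both TPM scales with a mean TPM of at least 1. These TPM scales placed the median log2 fold change of all genes at 0.136 and 0.155, against −0.00392 with edgeR. Iron genes higher (*Tfrc*) were 0 on the 3 TPM fits, with the replicate block, with the label series as covariate, in the first series, at 0.01 and with Chow 1 and Chow 3 both left out, 2 with the *Arntl* and *Dbp* covariate, and 0 to 1 with a liver left out; iron genes lower were 0 throughout (edgeR, DESeq2 and limma alike). The *Hamp2* share difference was 12.8 points with the replicate block (exact p = 0.125, the smallest that 4 pairs allow), 12.4 in the first series and 10.8 to 15.04 with a liver left out. The log2 ratio of *Tfrc* to *Tfr2* differed by 1.11 with the block (exact p = 0.25), 0.86 in the first series and 0.89 to 1.32 with a liver left out. Signs turned for *Fth1* (−0.0158 without HSD 1, −0.0182 without HSD 2 and −0.000516 without Chow 3, in a range up to 0.107), *Ftl1* (0.0812 on the 3 TPM fits), *Hfe* (2.11e-06 on both log2(TPM + 1) fits), *Slc40a1* (0.0300 with library totals, 0.184, 0.184 and 0.188 on TPM, 0.0429 in the first series and −0.0928 to 0.0265 with a liver left out, the last without HSD 4), and, with Chow 1 and Chow 3 left out, *Tfr2* (0.0140) and *Trf* (0.00376). The cause was not tested. The replicate numbers did not pair the livers (r of −0.0609 to 0.0661 over 4 pairs, with 1 HSD liver closest to its own number). *Tfrc* rests on 112 to 624 counts a liver and *Hamp2* on 38.7 in Chow 1, and a p that misses the threshold does not show equal levels.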
